A study of Mus musculus with 12 samples.

Results

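The transcripts of 38 cell cycle and proliferation genes were followed in mouse ventricle under pressure overload. The members were picked by gene symbol, and all 38 were found among the 14957 genes counted in each library. They comprise 3 D-type cyclins of G1, 2 inhibitors of cyclin-dependent kinases, 10 genes of DNA replication and nucleotide supply, 8 mitotic kinases and their partners, 7 genes of spindle, kinetochore and checkpoint, 6 of mitotic exit and cytokinesis, and the proliferation marks Mki67 and Top2a. All 38 also passed the filter on low counts, which kept 13910 genes for testing.

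RNA came from ventricles of 12 wild-type C57Bl/6J mice, with 4 mice in each of 3 groups. Sham-NT mice had sham surgery and received PBS. TAC-mScarlet mice had transverse aortic constriction, a narrowing of the aortic arch that loads the left ventricle with pressure, and received AAV9-MHCK7-mScarlet, an adeno-associated viral vector in which a synthetic muscle promoter (MHCK7) drives a red fluorescent protein. TAC-BacNav mice had the same surgery and received AAV9-MHCK7-BacNav-mScarlet, whose cargo adds BacNav, a bacterial voltage-gated sodium channel. Constriction and vector changed together against Sham-NT and cannot be told apart in those comparisons, because no sham group with vector is among these samples. The 2 constricted groups both carried a vector and differed in the channel, so their comparison addresses the gene therapy that the study assessed. The MHCK7 promoter is active in muscle, so expression of either cargo is aimed at cardiomyocytes among the cells of the ventricle. The labels give no age, sex or time after surgery.

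A dividing cell builds D-type cyclins in response to growth signals, releases E2F factors from the retinoblastoma protein, copies its DNA, and then switches on a program of mitotic genes. Many promoters of that mitotic program share a pair of elements, a CCAAT box and a cell cycle homology region (CHR), whereas many replication genes carry E2F sites. Adult mouse cardiomyocytes have largely left the cell cycle, and fibroblasts, endothelial cells and immune cells make up most of the dividing cells of an injured heart.

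The promoters of 4 members are shown so that mitotic and replication members can be set side by side: Cenpf, the only member called in any comparison; Mki67 and Top2a, the usual marks of proliferation; and Mcm5, a replication member with E2F letters. Each line gives the 150 bases before the annotated start of transcription, 5′ to 3′ on the gene's own strand, from RefSeq on GRCm38.p6. Capitals mark matches on either strand to CCAAT, to the CHR letters TTTGAA, or to E2F letters (TTTGGCGC, TTTCCCGC, TTTCGCGC or TTTGCCGC); matches were counted whether or not they overlapped another motif. The windows lie at chr1:189688087-189688236 (Cenpf), chr7:135716380-135716529 (Mki67) and chr11:99024190-99024339 (Top2a) on the minus strand, and at chr8:75109359-75109508 (Mcm5) on the plus strand.
Cenpf: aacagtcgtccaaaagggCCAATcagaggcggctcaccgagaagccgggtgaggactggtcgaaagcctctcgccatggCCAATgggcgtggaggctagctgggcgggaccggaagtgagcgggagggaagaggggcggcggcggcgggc
Mki67: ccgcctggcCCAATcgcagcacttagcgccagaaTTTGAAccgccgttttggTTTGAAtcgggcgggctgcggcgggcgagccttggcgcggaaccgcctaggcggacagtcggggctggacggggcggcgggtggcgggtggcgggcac
Top2a: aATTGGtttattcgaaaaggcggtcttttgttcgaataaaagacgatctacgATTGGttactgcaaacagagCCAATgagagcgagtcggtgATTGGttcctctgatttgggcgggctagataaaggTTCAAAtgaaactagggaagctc
Mcm5: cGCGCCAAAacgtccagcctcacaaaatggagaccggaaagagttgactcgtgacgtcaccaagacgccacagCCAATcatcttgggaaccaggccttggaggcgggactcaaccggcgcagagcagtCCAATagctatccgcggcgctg
Over the full 300-base windows (250 bases before the start to 50 after), 31 of the 38 members matched the RefSeq table, with 36 windows. CCAAT was found in 77.8% of those windows against 37.4% of all 32851 windows, TTTGAA in 44.4% against 17.9%, and an E2F match in 13.9% against 2.26%. TTTGAA occurred in 14 of the 19 mitotic members with a window and in 1 of the 9 replication members, Mcm2. E2F matches occurred in 4 of those 9 replication members and in 1 of the 19 mitotic members, Cdk1. The full Cenpf window held a TTTGAA match too, just inside the transcribed part. A match is a description of letters and not a bound site.

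Library totals ran from 5360869 to 11497836 counts, and every Sham-NT library (at most 7837342) was shallower than every TAC-mScarlet library (at least 8275608). The 10 ventricular cardiomyocyte markers were detected in every library. Their summed level was 99746 to 108436 CPM (counts relative to the library size, which was scaled by the trimmed mean of M-values) in Sham-NT and 61180 to 82504 in TAC-mScarlet, with 4 of 10 called lower. The markers of this list did not all move alike: 8 had a log2 fold change below 0 and 2 above. Mybpc3, for 1, ran from 2578 to 3200 CPM in Sham-NT and from 2821 to 3606 in TAC-mScarlet. Fibroblast markers summed to 2235 to 2958 CPM in Sham-NT and 3213 to 5890 in TAC-mScarlet, with 3 of 8 called higher, and macrophage markers to 536 to 722 against 806 to 1330, with 6 of 11 called higher. The sums in TAC-BacNav were 76079 to 99426, 3065 to 3465 and 787 to 933 CPM. No marker of these 3 lists that was in the tables was at 0 in any library. In bulk tissue, fewer cells of a type and less RNA per cell cannot be told apart, and whether cell makeup contributed to any member's value was not tested.

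Of the 38 members, 1 was called between TAC-mScarlet and Sham-NT at an adjusted p below 0.05, Cenpf, a kinetochore gene that was 4.02-fold lower in TAC-mScarlet. The background is 5.17% of all genes tested (quasi-likelihood test of edgeR, p adjusted by Benjamini-Hochberg over 13910 genes). None of the 38 was called between TAC-BacNav and TAC-mScarlet, where 0.0% of all genes were called, or between TAC-BacNav and Sham-NT, where 0.0144% were (2 genes). At an unadjusted p below 0.05, edgeR had 5, 1 and 5 members in these 3 comparisons (13.2%, 2.63% and 13.2% of the 38), beside 22.2%, 3.36% and 11.1% of all genes. For TAC-BacNav against TAC-mScarlet, edgeR had 467 genes at that unadjusted level, the member Cenpf among them. At an adjusted p below 0.05, DESeq2 called 5 genes and limma-voom 0, and no member was called.

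The members' log2 fold changes lay slightly above 0 on balance. Their median was 0.19 for TAC-mScarlet against Sham-NT (24 above 0 and 14 below), beside 0.004 for all genes. With library-size scaling it was 0.32 (31 above and 7 below) beside 0.13. For TAC-BacNav against Sham-NT it was 0.24 (31 above and 7 below) beside 0.008, and the 2 comparisons share the Sham-NT libraries. For TAC-BacNav against TAC-mScarlet it was 0.07 (25 above and 13 below) beside 0.004. Libraries of the groups compared did not overlap for 2 members in the first comparison (5.26% of members, background 13.1%), namely Tyms, higher, and Cenpf, lower. They did not overlap for Mcm5 and Rrm2, both higher, in TAC-BacNav against Sham-NT (5.26%, background 5.45%), and for Rrm1, higher, in TAC-BacNav against TAC-mScarlet (2.63%, background 1.7%). These shares are at or below the background, except the last, which rests on 1 gene.

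**Figure D1:**
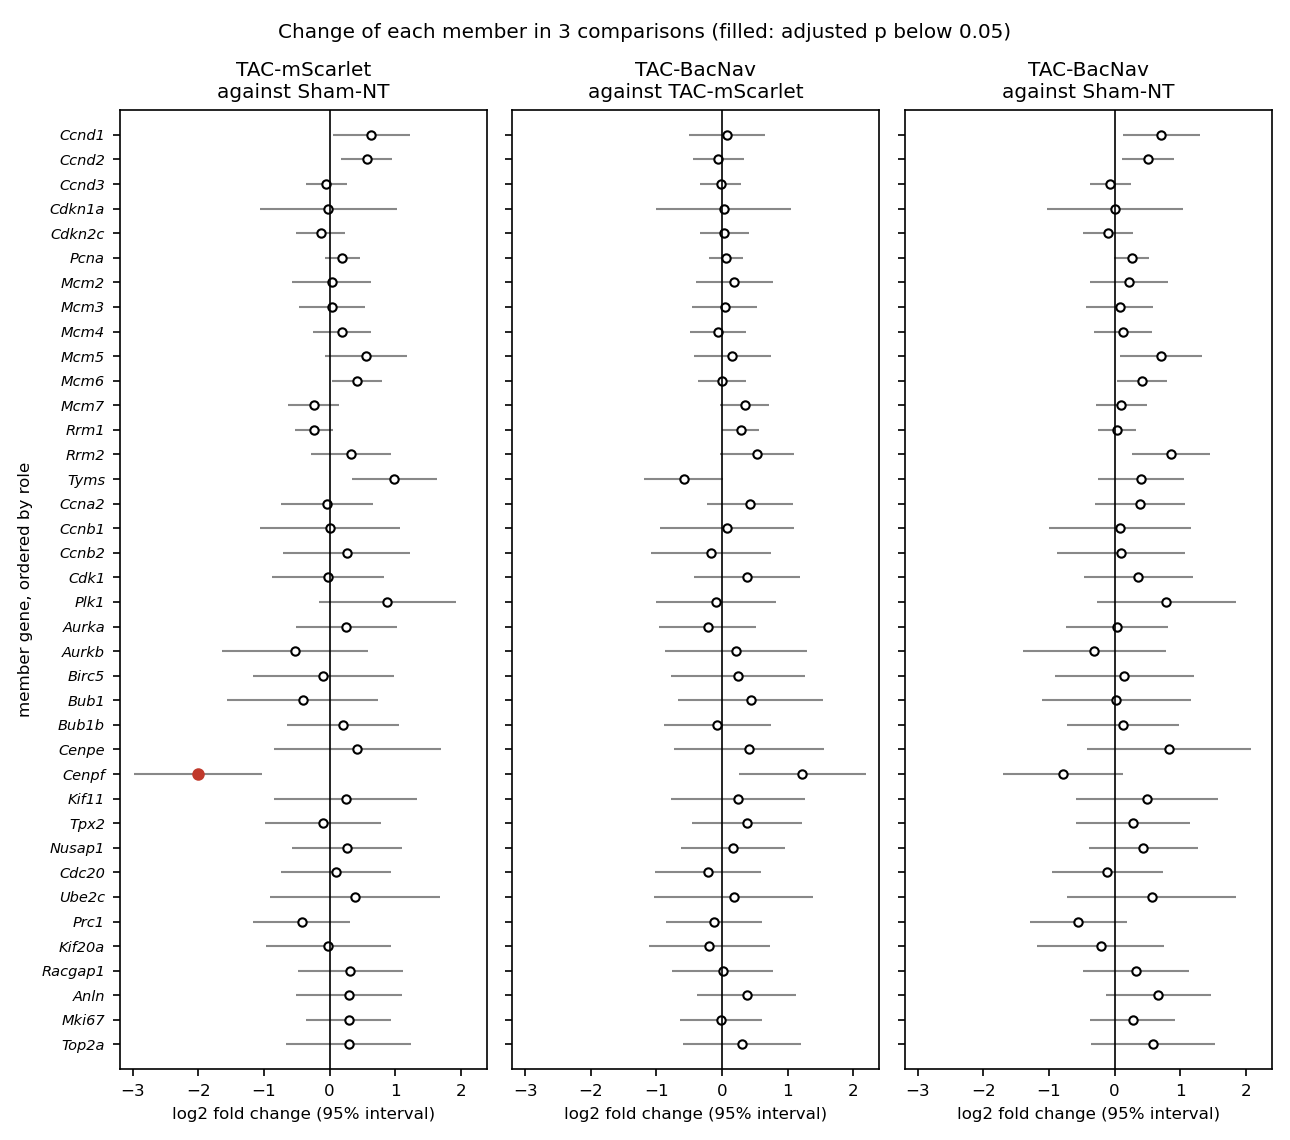
Log2 fold change of each of the 38 members with its 95% interval (x axis) in the 3 comparisons, ordered by role; filled points have an adjusted p below 0.05. Cenpf in TAC-mScarlet against Sham-NT, at -2.01, is the only filled point, and the intervals of the mitotic members are mostly wider than those of the replication members.

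The D-type cyclins bind CDK4 and CDK6 and start the passage through G1. Ccnd2, the most abundant of the 3, was at 87.2, 81.6, 136 and 97.7 CPM in the Sham-NT libraries, at 117, 135, 159 and 185 in TAC-mScarlet, and at 123, 119, 151 and 181 in TAC-BacNav. Only Sham-NT 3 reached into the range of the constricted groups. Its log2 fold change was 0.57 ± 0.18 (SE, adjusted p = 0.0841, edgeR) for TAC-mScarlet against Sham-NT, a 1.48-fold higher level that missed the threshold, and 0.51 ± 0.18 (adjusted p = 0.374) for TAC-BacNav against Sham-NT. The first value passed the threshold without Sham-NT 3 (0.75, adjusted p = 0.0213). It also passed in a model with a factor for libraries above or below 20 CPM of the immediate early gene Fos (0.69, adjusted p = 0.00521). With mouse number as a block it was 0.57 (adjusted p = 0.0252). Of the 8 other scalings, tools and models tried, 6 did not call Ccnd2 (adjusted p up to 0.0925). With 1 library left out, 7 of 8 fits did not call it (up to 0.224). The constricted groups differed from each other by -0.06, with a 95% interval of -0.44 to 0.33.

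Ccnd1 was lower than Ccnd2 per length (9.99 against 13.9 CPM per kb). It stood at 28.7, 21.7, 53.1 and 30.4 CPM in Sham-NT, at 42.9, 46.9, 46.2 and 74.2 in TAC-mScarlet, and at 44.1, 43.8, 53.2 and 79.4 in TAC-BacNav. Mouse 3 was again the highest of Sham-NT and mouse 4 the highest of each constricted group. The log2 fold change was 0.64 ± 0.27 for TAC-mScarlet against Sham-NT (adjusted p = 0.189) and 0.71 ± 0.27 for TAC-BacNav against Sham-NT (adjusted p = 0.399). The first reached an adjusted p of 0.0355 at 0.96 without Sham-NT 3, and 0.00825 at 0.82 with the Fos factor. With 1 library left out, 7 of 8 fits did not call Ccnd1 (adjusted p up to 0.413). Neither did 7 of the 8 other scalings, tools and models (up to 0.199). The third cyclin, Ccnd3, was not called either: its group means were 36.5, 35.4 and 34.9 CPM, and its 95% interval for TAC-mScarlet against Sham-NT ran from -0.36 to 0.27. The fibroblast and macrophage marker sums were higher in every constricted library than in every sham library, and their part in the Ccnd1 and Ccnd2 values was not tested.

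Cdkn1a encodes p21, an inhibitor of cyclin-dependent kinases and a target of p53. It varied most within Sham-NT, at 102, 16.8, 35.3 and 44.5 CPM, against 59.9, 23.6, 41.6 and 70.2 in TAC-mScarlet and 43.0, 54.4, 49.2 and 51.4 in TAC-BacNav. The 3 group means were 49.5, 48.8 and 49.5 CPM. Between TAC-mScarlet and Sham-NT the log2 fold change was -0.02 ± 0.47, and became 0.59 (adjusted p = 0.396) without Sham-NT 1. Its sign also turned under other settings, so no direction is given for it. Cdkn2c, which encodes the CDK4 and CDK6 inhibitor p18, lay between 8.35 and 14.1 CPM in all 12 libraries, with log2 fold changes of -0.13, 0.03 and -0.10 in the 3 comparisons.

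**Figure D2:**
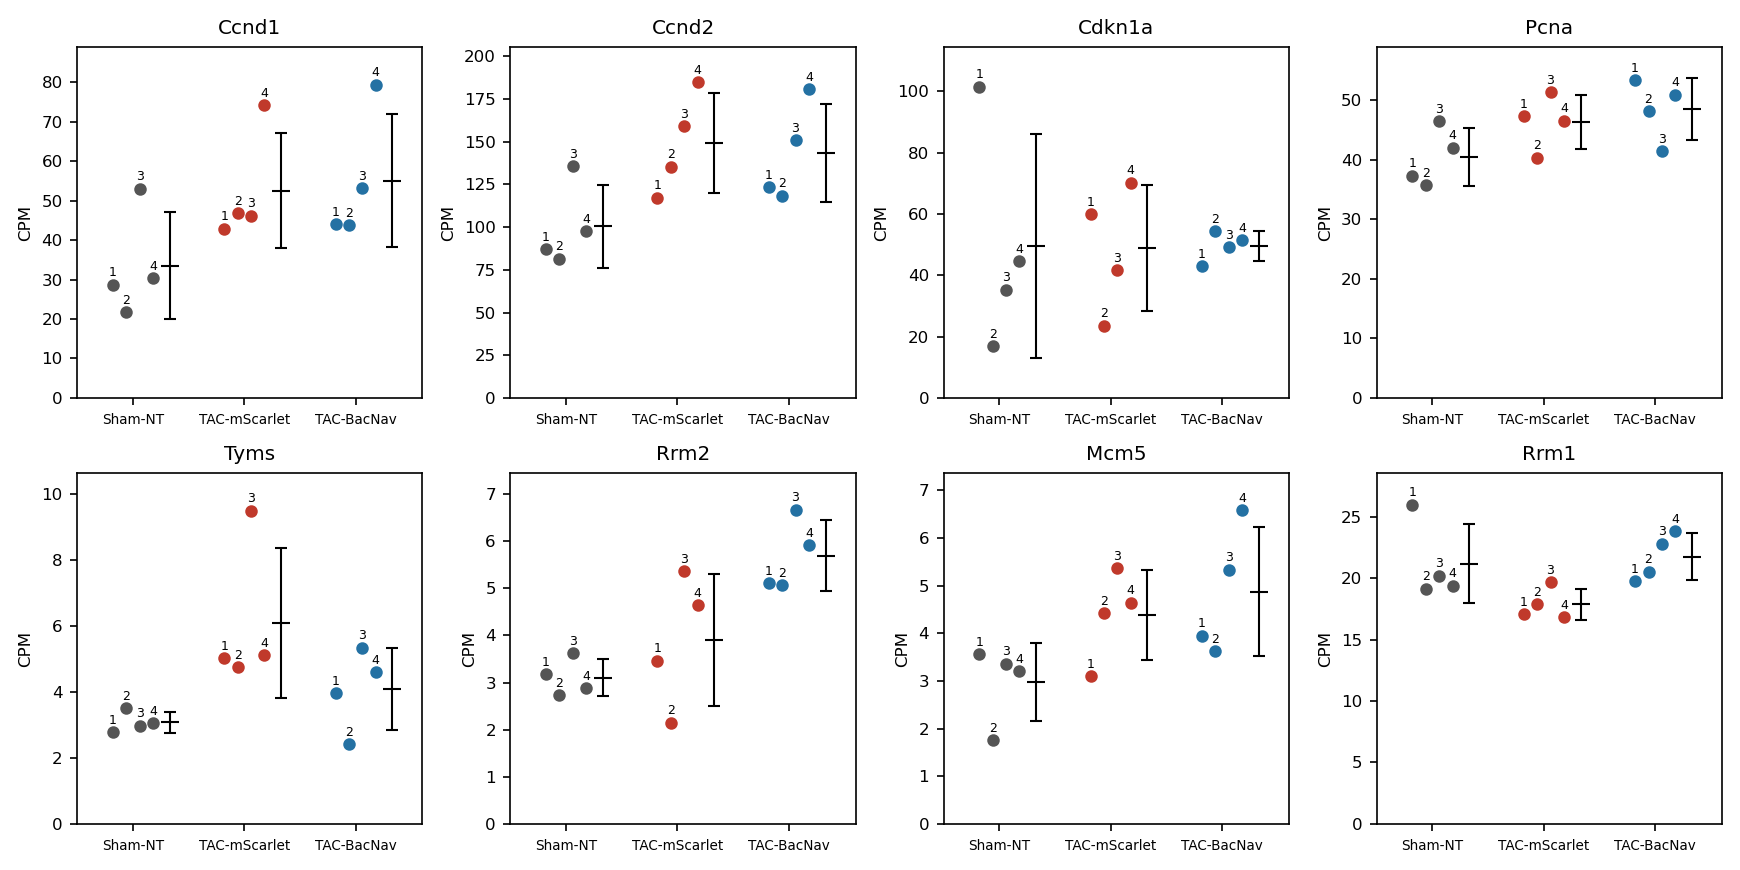
CPM (y axis) of 8 members of G1 and replication in each library, numbered by mouse; bars at the right of each group give the mean and SD of 4 mice. Ccnd1 and Ccnd2 are higher in the constricted groups apart from Sham-NT 3, Tyms separates TAC-mScarlet from Sham-NT, Rrm2 and Mcm5 separate TAC-BacNav from Sham-NT, and Cdkn1a spreads most within Sham-NT.

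Among the 10 replication members, 8 had a log2 fold change above 0 for TAC-mScarlet against Sham-NT and all 10 for TAC-BacNav against Sham-NT, and none was called. Tyms, the enzyme that makes thymidylate for DNA synthesis, was at 2.78, 3.51, 2.98 and 3.04 CPM in Sham-NT, 5.02, 4.76, 9.49 and 5.10 in TAC-mScarlet, and 3.95, 2.41, 5.34 and 4.60 in TAC-BacNav. All TAC-mScarlet libraries exceeded all Sham-NT libraries, and TAC-BacNav overlapped both groups. The log2 fold change was 0.99 ± 0.30 for TAC-mScarlet against Sham-NT, a 1.99-fold higher level with an adjusted p of 0.0665. It passed the threshold with DESeq2 (0.0372), library-size scaling (0.0417) and the Fos factor (0.0474), and the value was 0.69 without TAC-mScarlet 3. In 5 of the 8 other scalings, tools and models it was not called (adjusted p up to 0.116). None of the 8 fits with 1 library left out called Tyms (adjusted p from 0.0638 to 0.241). TAC-BacNav differed from TAC-mScarlet by -0.58 ± 0.28 (adjusted p = 0.9995).

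Rrm2 and Rrm1 encode the small and large subunits of ribonucleotide reductase, which supplies deoxyribonucleotides. Rrm2 was at 3.17, 2.73, 3.62 and 2.88 CPM in Sham-NT, 3.46, 2.15, 5.37 and 4.64 in TAC-mScarlet, and 5.12, 5.07, 6.67 and 5.92 in TAC-BacNav. The TAC-BacNav libraries thus stood above every sham library, while TAC-mScarlet spanned both. Its log2 fold change of 0.86 ± 0.28 for TAC-BacNav against Sham-NT (adjusted p = 0.367) was the member with the smallest unadjusted p in that comparison, 0.00727. Rrm1 was at 26.0, 19.1, 20.2 and 19.4 CPM in Sham-NT, 17.1, 17.9, 19.6 and 16.8 in TAC-mScarlet, and 19.8, 20.5, 22.8 and 23.8 in TAC-BacNav. The small gap between the constricted groups gave a log2 fold change of 0.28 ± 0.13 (adjusted p = 0.9995).

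The Mcm genes encode the 6 subunits of the helicase that opens replication origins, and Pcna the clamp that holds the DNA polymerase. Mcm5 was at 3.57, 1.76, 3.36 and 3.20 CPM in Sham-NT, 3.11, 4.42, 5.37 and 4.64 in TAC-mScarlet, and 3.95, 3.62, 5.34 and 6.58 in TAC-BacNav. Its lowest TAC-BacNav library was just above its highest sham library. The log2 fold change was 0.71 ± 0.29 for TAC-BacNav against Sham-NT (adjusted p = 0.409) and 0.55 ± 0.29 for TAC-mScarlet against Sham-NT (adjusted p = 0.289). Mcm6 was at 11.5, 9.17, 12.2 and 14.3 CPM in Sham-NT, 14.6, 13.8, 20.2 and 14.4 in TAC-mScarlet, and 14.1, 14.7, 14.7 and 19.4 in TAC-BacNav. Sham-NT 4 overlapped the constricted range, and the log2 fold change was 0.42 ± 0.18 against Sham-NT in each constricted group (adjusted p = 0.188 and 0.425).

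Mcm7 was at 13.3, 9.76, 10.9 and 14.7 CPM in Sham-NT, 8.12, 10.6, 11.9 and 10.4 in TAC-mScarlet, and 13.8, 10.5, 14.4 and 13.6 in TAC-BacNav. It differed by -0.24 ± 0.18 between TAC-mScarlet and Sham-NT and by 0.35 ± 0.18 between the constricted groups (adjusted p = 0.48 and 0.9995). For TAC-BacNav against Sham-NT all 6 Mcm genes lay above 0, from 0.08 (Mcm3) to 0.71 (Mcm5), and none was called. Mcm2, Mcm3 and Mcm4 had log2 fold changes of 0.03, 0.04 and 0.19 for TAC-mScarlet against Sham-NT. Pcna, at 37.3, 35.7, 46.5 and 41.98 CPM in Sham-NT, 47.3, 40.3, 51.3 and 46.5 in TAC-mScarlet, and 53.4, 48.2, 41.4 and 50.9 in TAC-BacNav, overlapped in all comparisons. Against Sham-NT its log2 fold change was 0.20 ± 0.12 for TAC-mScarlet and 0.26 ± 0.12 for TAC-BacNav (adjusted p = 0.381 and 0.454). Per kilobase of exon, Pcna was the most abundant member, at a mean of 18.8 CPM per kb over 12 libraries, ahead of Ccnd2 and Cdkn1a at 13.9 each.

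The 8 mitotic kinases and partners were scarce, with means between 1.04 and 3.04 CPM and between 2 and 48 counts in any library. They are the cyclins Ccna2, Ccnb1 and Ccnb2 with their kinase Cdk1, the Polo-like kinase Plk1, the Aurora kinases Aurka and Aurkb, and Birc5 (survivin), which sits with Aurkb in the chromosomal passenger complex. Their log2 fold changes for TAC-mScarlet against Sham-NT ran from -0.53 (Aurkb) to 0.88 (Plk1), 4 above 0 and 4 below, with a median of -0.01 and adjusted p of 0.314 or more. Cdk1 had group means of 2.81 ± 1.95, 2.72 ± 0.643 and 3.58 ± 0.598 CPM (SD, n = 4), and its Sham-NT libraries ran from 0.961 to 5.55. The sham spread covered both constricted groups. The 95% interval of Plk1 ran from -0.17 to 1.93 and that of Aurkb from -1.63 to 0.58, which at this depth held both 0 and a change of more than 1 log2 unit.

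Cenpf (ENSMUSG00000026605.14) encodes a large kinetochore and nuclear matrix protein that builds up before mitosis. It was at 13.9, 36.5, 24.3 and 30.3 CPM in Sham-NT (26.2 ± 9.63, SD, n = 4), at 9.08, 9.74, 3.74 and 3.71 in TAC-mScarlet (6.57 ± 3.29), and at 26.3, 17.1, 8.67 and 9.04 in TAC-BacNav (15.3 ± 8.30). Every TAC-mScarlet library lay below every sham library, and TAC-BacNav was split, with mice 1 and 2 within the sham range and mice 3 and 4 within the TAC-mScarlet range. The same TAC-BacNav mice were apart in summed immediate early markers (1954 and 1951 against 103 and 94.0 CPM). Sham-NT mice were apart likewise in those markers (938 and 671 against 108 and 63.8), with Cenpf lowest in mouse 1 and highest in mouse 2. In TAC-mScarlet mice 1 to 4 the marker sums were 2258, 1345, 1331 and 162. Mice 1 and 2 were the highest of that group in both measures, and mouse 4 was the lowest. Mouse 3 was near mouse 2 in the markers but near mouse 4 in Cenpf. Whether the immediate early markers had a part in the Cenpf values was not tested. Cenpf fell by 2.01 ± 0.45 log2 units in TAC-mScarlet against Sham-NT (95% interval -2.98 to -1.03, adjusted p = 0.0297, edgeR), 4.02-fold lower. It was 1.22 ± 0.45 higher in TAC-BacNav than in TAC-mScarlet, which had an unadjusted p of 0.0175 and an adjusted p of 0.9995. TAC-BacNav stood at -0.78 ± 0.42 against Sham-NT (adjusted p = 0.502).

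The Cenpf call was held by all 8 other scalings, tools and models tried (adjusted p from 1.12e-04 to 0.0321), and by 4 of 8 fits with 1 library left out. It was lost at -1.81 without Sham-NT 2 (adjusted p = 0.0892), at -1.93 without Sham-NT 4 (0.0861), at -1.81 without TAC-mScarlet 3 (0.0960) and at -1.82 without TAC-mScarlet 4 (0.0716). With both constricted groups pooled, a comparison chosen after seeing the data, it was -1.39 ± 0.36 (adjusted p = 0.0578), where no member was called and 2.57% of all genes were. The fall of Cenpf went with lower cardiomyocyte marker sums in the same group, as given above, and their part in it was not tested. Its gene at chr1:189640606-189688086 on the minus strand of GRCm38 (GENCODE vM21) overlaps the exons of no other annotated gene, and its exons span 15433 bases. Per kilobase of exon, Cenpf averaged 1.04 CPM over all libraries, beside 1.15 for Mki67. By group, Cenpf and Mki67 stood at 1.70 and 1.01 in Sham-NT, 0.426 and 1.23 in TAC-mScarlet, and 0.990 and 1.22 in TAC-BacNav.

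The other 6 spindle and checkpoint genes were not called. They are the checkpoint kinases Bub1 and Bub1b, the kinetochore motor Cenpe, the spindle motor Kif11, and the spindle assembly factors Tpx2 and Nusap1. Their log2 fold changes for TAC-mScarlet against Sham-NT ran from -0.41 (Bub1) to 0.43 (Cenpe), and their adjusted p were 0.719 or more. The 95% intervals of Nusap1 (-0.57 to 1.11) and Tpx2 (-0.99 to 0.79) did not reach the Cenpf value of -2.01. Cenpe was the least abundant member per length, at 0.183 CPM per kb, with 0.195 CPM in Sham-NT 2 and 4.54 in TAC-BacNav 3.

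Summed over the 22 mitotic members other than Cenpf, the level was 73.7, 37.1, 55.8 and 44.9 CPM in Sham-NT, 46.0, 52.4, 72.5 and 63.6 in TAC-mScarlet, and 42.8, 48.8, 94.99 and 71.5 in TAC-BacNav. The groups overlapped throughout, with means of 52.9 ± 15.9, 58.6 ± 11.7 and 64.5 ± 23.8 (SD, n = 4). Library by library, the 22 moved together: 21 of them had a positive rank correlation with the sum of the remaining ones over 12 libraries (rho from -0.06 for Aurka to 0.94 for Nusap1, median 0.56). Cenpf ran the other way, with r = -0.66 and rho = -0.74 against the sum of the 22 on log2 values, r = -0.62 without Sham-NT 2 and TAC-BacNav 3, and r = -0.92 for deviations from the group means. These are descriptions over 12 libraries that share depth, scaling and cell makeup between the measures. The share of all genes with correlations of this sign or size to the mitotic sum was not counted. The libraries with the lowest mitotic sum in Sham-NT and TAC-BacNav, Sham-NT 2 and TAC-BacNav 1, had the highest Cenpf of their groups, whereas in TAC-mScarlet mouse 1 had the lowest sum and mouse 2 the highest Cenpf (9.74 against 9.08 CPM).

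**Figure D3:**
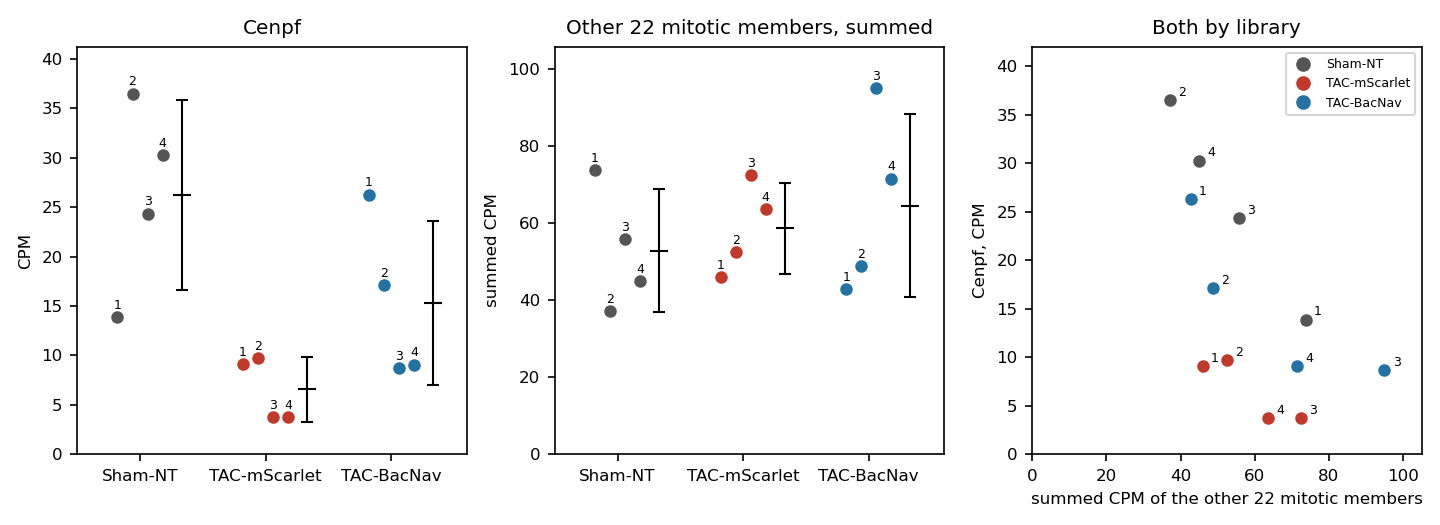
Left and middle: CPM of Cenpf and summed CPM of the other 22 mitotic members by group, each point a library numbered by mouse, with mean and SD of 4 mice; right: both values plotted against each other for the 12 libraries. Cenpf is lowest in TAC-mScarlet (3.71 to 9.74 CPM), the summed level overlaps between groups, and libraries with more of the other mitotic transcripts have less Cenpf.

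Mitotic exit and cytokinesis are represented by Cdc20 and Ube2c, which drive the anaphase-promoting complex, by Prc1, Kif20a and Racgap1 of the central spindle, and by Anln (anillin) of the contractile ring. Their log2 fold changes for TAC-mScarlet against Sham-NT ran from -0.43 (Prc1) to 0.39 (Ube2c), 4 above 0 and 2 below, with adjusted p of 0.520 or more. For TAC-BacNav against Sham-NT they ran from -0.55 (Prc1) to 0.67 (Anln). Ube2c spread most within Sham-NT, from 0.195 CPM in mouse 2, a single count, to 4.96 in mouse 1. Its exons overlap Tnnc2 on the opposite strand, and the sources used here do not state the strand setting of the counting. Exons of Ccna2, Kif20a, Prc1, Cdc20, Mcm7, Ccnd1, Ccnd2, Ccnd3, Cdkn1a, Nusap1 and Plk1 also overlap an annotated gene on the other strand, so reads of either gene may have entered their counts. The genes that share most exon bases with Ube2c, Ccnd2, Cdkn1a and Plk1 are not among the genes counted. Top2a shares 122 exon bases with Gm23451 on its own strand, which is not among them either.

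Mki67, which encodes the Ki-67 protein of dividing cells, was at 14.1, 8.20, 10.9 and 7.37 CPM in Sham-NT, 9.32, 13.0, 11.9 and 15.2 in TAC-mScarlet, and 6.98, 8.57, 20.8 and 12.7 in TAC-BacNav. Top2a, the DNA topoisomerase of dividing cells, was at 7.14, 1.56, 4.66 and 1.76, at 3.46, 3.85, 6.42 and 4.64, and at 2.56, 4.59, 7.07 and 8.38 CPM in the same groups. Both overlapped between all groups, and Sham-NT 1 was the highest sham library and TAC-BacNav 1 the lowest TAC-BacNav library for each. The log2 fold change for TAC-mScarlet against Sham-NT was 0.29 ± 0.30 for Mki67 (adjusted p = 0.633) and 0.29 ± 0.45 for Top2a (adjusted p = 0.765). The 95% intervals were -0.36 to 0.94 and -0.67 to 1.25. TAC-BacNav differed from TAC-mScarlet by -0.01 ± 0.29 in Mki67 and 0.30 ± 0.42 in Top2a.

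**Figure D4:**
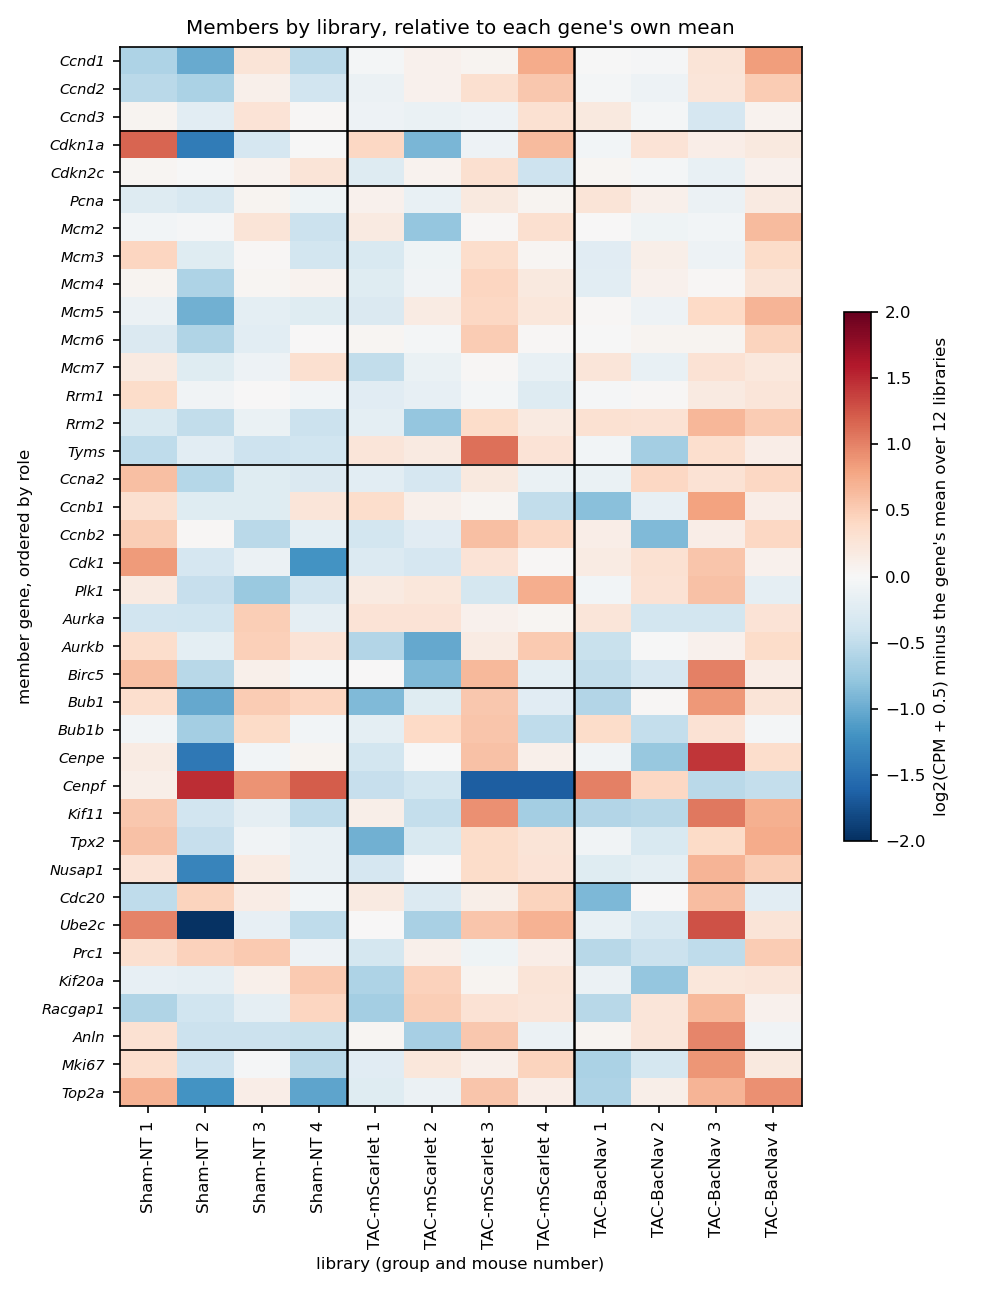
Level of each of the 38 members (rows, ordered by role, with lines between roles) in each of the 12 libraries (columns), as log2(CPM + 0.5) minus the gene's own mean; red is above and blue below that mean. Columns such as Sham-NT 1 and TAC-BacNav 3 are red and Sham-NT 2 is blue for most mitotic members, whereas the Cenpf row is red in Sham-NT 2 and darkest blue in TAC-mScarlet 3 and 4.

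Beyond the members, 238 further cell cycle genes were listed, of which 201 could be tested. For TAC-mScarlet against Sham-NT, 3 were called higher and 1 lower (background 2.65% and 2.52%, or 369 and 350 genes, which became 698 and 205 with library-size scaling), with a median log2 fold change of 0.09. No gene was called among 29 of G1, RB and E2F control, 12 of the replication checkpoint and recombination, and 54 of mitosis and cytokinesis. Of the remaining lists, 1 of 53 genes of DNA replication (Ung) and 1 of 21 p53 targets (Gdf15) were called. So were 1 of 17 kinase inhibitors and growth brakes (Tob1) and 1 of 17 genes of the anaphase-promoting complex (Anapc7). Each of these lists thus rests on 1 gene. Ung, which encodes a uracil-DNA glycosylase of DNA repair, fell by 0.79 ± 0.16 log2 units (adjusted p = 0.0229), from 24.8, 24.99, 27.6 and 24.4 CPM in Sham-NT to 15.1, 15.9, 12.5 and 15.5 in TAC-mScarlet. TAC-BacNav stood at 29.8, 19.9, 18.01 and 18.7, above every TAC-mScarlet library, but was not called different from either group. The Ung call was lost without Sham-NT 2 (adjusted p = 0.0729), Sham-NT 4 (0.0756) or TAC-mScarlet 3 (0.0727).

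Gdf15, a stress-induced cytokine and p53 target, rose by 3.08 ± 0.69 on the log2 scale (adjusted p = 0.0283), from 1.98, 0.781, 0.388 and 1.12 CPM in Sham-NT to 3.70, 2.38, 15.8 and 13.0 in TAC-mScarlet. TAC-mScarlet 3 and 4, the libraries with the least Cenpf, had the most Gdf15. The antiproliferative gene Tob1 rose by 0.65 ± 0.18 (adjusted p = 0.0451) and Anapc7, a subunit of the anaphase-promoting complex, by 0.42 ± 0.12 (adjusted p = 0.0495). With 1 library left out, 3 of 8 fits still called Gdf15, 1 of 8 Tob1 and 1 of 8 Anapc7. Under the 8 other settings Anapc7 was not called in 4 (adjusted p up to 0.0812), Tob1 in 2 (up to 0.0600) and Gdf15 in 1 (0.102). The lowest TAC-mScarlet level of Tob1, 39.0 CPM, was below the highest sham level, 40.5, whereas Anapc7 ran from 29.3 to 37.5 CPM in Sham-NT and from 42.8 to 53.3 in TAC-mScarlet. No gene of these lists was called in either comparison with TAC-BacNav by edgeR, with 5 and 15 of the 201 at an unadjusted p below 0.05 against TAC-mScarlet and against Sham-NT (2.49% and 7.46%, beside 3.36% and 11.1% of all genes).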

How the data were processed

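Ventricular RNA of 12 mice, 4 per group, was sequenced. The deposited files give whole-number counts per gene for each mouse; per the submitters' processing notes the authors used HISAT2 and featureCounts. Those notes name the build GRCh38, a human genome, while the identifiers in the files are mouse genes. The sources used here state neither versions nor the strand setting. The deposited tables hold no gene with a total under 30 counts over the 12 libraries. Counts were tested with edgeR 4.0.16 (R 4.3.3): filterByExpr removed 1047 of 14957 genes, library sizes were scaled by TMM, and one quasi-likelihood model over the 3 groups gave each comparison, with Benjamini-Hochberg adjustment over 13910 genes and a threshold of 0.05. The model and code were tested on simulated counts.

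CPM used the scaled library sizes, and CPM per kb the merged exon length in GENCODE vM21. Values of each library are printed for members that were called, whose groups did not overlap, or that had one of the 5 smallest p in a comparison, and for Mki67, Top2a, Pcna, Ccnd1, Ccnd2 and Cdkn1a; from the further lists, called genes are named. The members and lists were chosen with earlier results of these data known. The alternatives were library-size and RLE scaling, DESeq2 1.42.0, limma-voom (limma 3.58.1), no filter, only the 2 groups compared, mouse number as a block, a factor for Fos above or below 20 CPM, and each library left out.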

Additional observations from a re-analysis of the deposited data

Results flagged for a closer look

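Within groups of 4 mice, 11 member values stood apart from the other 3, their gap exceeding the share of the range set by Dixon's 95% critical value for groups of 4. With 114 groups checked, chance flags about 1 group in 20. TAC-mScarlet 4 was high in the D-type cyclins Ccnd1 (74.2 CPM, others 42.9 to 46.9) and Ccnd3 (43.5, others 32.3 to 32.9). TAC-BacNav 4 was high in the helicase subunits Mcm2 (8.88, others 5.19 to 5.58) and Mcm6 (19.4, others 14.1 to 14.7) and in Prc1 of the central spindle (3.45, others 1.40 to 1.57). TAC-mScarlet 3 was high in Mcm6 (20.2, others 13.8 to 14.6) and Tyms (9.49, others 4.76 to 5.10). Sham-NT 1 was high in Rrm1 (26.0, others 19.1 to 20.2) and Anln (3.57, others 1.92 to 1.95). Sham-NT 2 was low in Mcm4 (6.44, others 10.5 to 10.7) and in the checkpoint kinase Bub1 (0.390, others 1.78 to 2.07).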

How the results depend on the processing

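Of 624 alternative fits of the 13 members given in full, 577 kept direction and side of the threshold. Most of these were values that stayed uncalled, since the main fit called only Cenpf in TAC-mScarlet against Sham-NT. That call was lost in 4 fits, and 8 fits called a member that the main fit did not. For TAC-mScarlet against Sham-NT, where 719 genes were called, library-size scaling called 903, DESeq2 called 1370, limma-voom 475, the model with the Fos factor 1459, both constricted groups pooled 358, and fits with 1 library left out 14 (without Sham-NT 2) to 1055 (without Sham-NT 3). Members called there were 2 (Tyms and Cenpf) with library-size scaling and with DESeq2, 4 (Ccnd1, Ccnd2, Tyms and Cenpf) with the Fos factor, 0 with the groups pooled, and 0 to 3 with 1 library left out. TAC-BacNav against TAC-mScarlet had 5 genes by DESeq2 and 1 with only these groups fitted. TAC-BacNav against Sham-NT had 38 by DESeq2, 8 with the Fos factor, 1 with only these groups, and 0 to 15 with 1 library left out. Library-size scaling moved the median log2 fold change of all genes by 0.13 for TAC-mScarlet against Sham-NT.

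Mouse numbers are shared between groups, and the sample titles do not say whether they pair the mice. Same-numbered libraries correlated from -0.29 to 0.38 in their deviations, with 8 of 12 pairs above 0.1. Of the 12 libraries, 3 correlated best with their own number. Summed immediate early markers were 938, 671, 108 and 63.8 CPM in Sham-NT mice 1 to 4. They were 2258, 1345, 1331 and 162 in TAC-mScarlet, and 1954, 1951, 103 and 94.0 in TAC-BacNav. Mesothelial marker sums were 96.5, 67.5, 20.8 and 12.3 in Sham-NT. They were 55.9, 43.8, 41.4 and 17.4 in TAC-mScarlet, and 80.9, 83.9, 13.3 and 12.3 in TAC-BacNav. Whether same-numbered mice shared handling was not tested. With mouse number as a replicate block, 2 members were called for TAC-mScarlet against Sham-NT (Ccnd2 at 0.57, adjusted p = 0.0252, and Cenpf at -2.15, adjusted p = 0.00636), and 889, 6 and 12 genes in the 3 comparisons.

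Signs turned in 35 fits, all of members with an unadjusted p of 0.05 or more. For TAC-BacNav against TAC-mScarlet, leaving out 1 library gave -0.16 to 0.29 for Ccnd1, -0.19 to 0.0664 for Ccnd2, -0.20 to 0.25 for Cdkn1a, -0.0319 to 0.27 for Mcm5, -0.12 to 0.15 for Mcm6 and -0.37 to 0.18 for Mki67; the Fos factor gave -0.0935 for Ccnd1, and Mcm6 was 0.0104 by limma-voom and 9.54e-05 with only these groups. Cdkn1a in TAC-mScarlet against Sham-NT was 0.10 with library-size scaling, 0.16 by limma-voom, 0.0739 with the replicate block and -0.30 to 0.59 with 1 library left out. Against Sham-NT, leaving out 1 TAC-BacNav or Sham-NT library gave -0.28 to 0.61 for Cdkn1a (-8.62e-04 by DESeq2), -0.00902 to 0.15 for Rrm1 and -0.0827 to 0.47 for Mki67. The causes were not tested. Counts as low as 1 per library limit the precision of the mitotic members.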

Other observations

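Among 13783 genes with a mean of at least 1 CPM, those whose levels followed Cenpf most closely over the 12 libraries were Mccc2, a mitochondrial enzyme of leucine breakdown (r = 0.97 on log2(CPM + 0.5)), Gatd3a, Smco1, Eci2, an isomerase of fatty acid oxidation (0.95), Clpb, Adi1, Maob and the potassium channel gene Kcnh2 (0.94). The correlations of the deviations from group means lay at 0.85 for Maob and 0.95 for Mccc2 and Kcnh2. The closest other member reached 0.29, at rank 3850. The 8 were picked with their values in view, the libraries share depth and cell makeup, and no test was made.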
